A study of Homo sapiens with 6 samples.

Results

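AluY elements are the youngest lineage of the Alu repeats, short retrotransposed elements of primate genomes. They were examined here in RNA of HEK293T cells, an established human line of embryonic kidney origin that expresses a viral large T antigen. All listed repeat loci whose repeat name begins with AluY were taken, which gave 9475 of 433837 loci, under 25 names. The names are the subfamilies, and the name AluY itself, for copies not placed in a named branch, holds 7731 of the loci. Of the other names AluYm1 holds 350, AluYc 229 and AluYh3 151, and the smallest, AluYh7, holds 2. Members were chosen by name alone, without use of their values. However, every listed locus had a read in at least 1 library. The numbers of loci are thus of detected copies, not of all copies in the genome.

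The comparison had a control and a knockdown group, each of 3 libraries that the series' design calls biological replicates. Cells of both groups were transfected by lipofection with an antisense oligonucleotide (ASO). The U7 ASO was a chemically modified chimera, and the dose is listed as 100 nM for both groups. The control group received an ASO against GFP and is labelled WT, and the other group received an ASO against the U7 small nuclear RNA and is labelled as its knockdown. U7 RNA guides the cleavage by which histone messenger RNAs of dividing cells gain their 3′ ends. The time between transfection and harvest is not given in the sources used here. The libraries were made from total RNA depleted of ribosomal RNA. All comparisons concern 1 cell line, and as RNA came from whole cultures, a change in the number of cells that carry a transcript and a change in its amount per cell cannot be told apart.

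Alu elements descend from 7SL RNA, the RNA of the signal recognition particle. They carry an internal promoter for RNA polymerase III, but many copies also lie in introns and untranslated regions of genes and are copied as part of longer RNA polymerase II transcripts. Alu elements encode no protein and move with the enzymes of L1 elements. Among AluY subfamilies, AluYa5 and AluYb8 are the best known for recent insertions in human genomes. Reads from such near-identical copies are hard to place, so a sum over a subfamily is firmer than the value of a single copy.

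The targeted RNA could not be checked. The loci named U7 held 10, 6 and 12 reads in control libraries 1, 2 and 3 and 10, 4 and 6 reads in U7 ASO libraries 1, 2 and 3. Reads counted in repeat loci ranged from 1926892 to 2025985 in the controls and from 2089822 to 2819540 under the U7 ASO. The most-read pair of loci, a 7SK copy and a copy of the large ribosomal RNA, took between 33.6% and 41.2% of a library's reads. Control library 3 stood apart in 2 respects. Its reads named for the large ribosomal RNA made up 12.1% of the total against 17.7% to 21.8% in the other 5 libraries, and its AluY reads were the fewest.

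AluY reads were more frequent in the U7 ASO libraries, and AluS and AluJ reads were as well. AluY loci together held 10249, 11209 and 8302 reads in control libraries 1, 2 and 3 and 12981, 17825 and 20450 reads in U7 ASO libraries 1, 2 and 3. Scaled to all repeat reads (RPM, the reads-per-million scale) these were 5059, 5817 and 4191 in the controls and 6212, 7588 and 7253 under the U7 ASO. All U7 ASO values exceeded all control values. The means were 5022 ± 814 and 7018 ± 718 RPM (SD, n = 3 each), a 1.40-fold ratio. Without control library 3 the difference of the means fell from 1995 to 1580 RPM (1579.65 before rounding). With another denominator the groups overlapped. When the 10 most-read loci of the series were left out of the denominator, the values were 10210.2, 11266 and 7532 in the controls and 11075, 13102 and 13262 under the U7 ASO, and control library 2 then lay above U7 ASO library 1. No p is given for the sum of the members.

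The AluY share of Alu reads differed between the groups by less than the spread of the controls. AluS reads averaged 43597 ± 2908 RPM in the controls and 55679 ± 6067 under the U7 ASO, a 1.28-fold ratio, and AluJ reads 26593 ± 1930.0 and 33567 ± 4420 (4419.64 before rounding), a 1.26-fold ratio (SD, n = 3 each). AluY made up 7.09%, 7.31% and 5.62% of the AluY, AluS and AluJ reads in the controls and 7.45%, 7.31% and 7.14% under the U7 ASO. The exact 95% interval of control library 3, 5.50% to 5.73%, lay below those of the other 5 libraries, which together ran from 6.95% to 7.57%. These intervals cover counting error only. The group difference of 0.630 percentage points did not pass an exact two-sided permutation test (p = 0.3), where the smallest p that 3 libraries against 3 can give is 0.1. Without control library 3 the difference was 0.102 percentage points. Without the 10 most-read AluY loci it was 0.829 percentage points, 6.04% against 6.87%, with groups that did not overlap (exact two-sided permutation p = 0.1, the smallest possible).

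**Figure D1:**
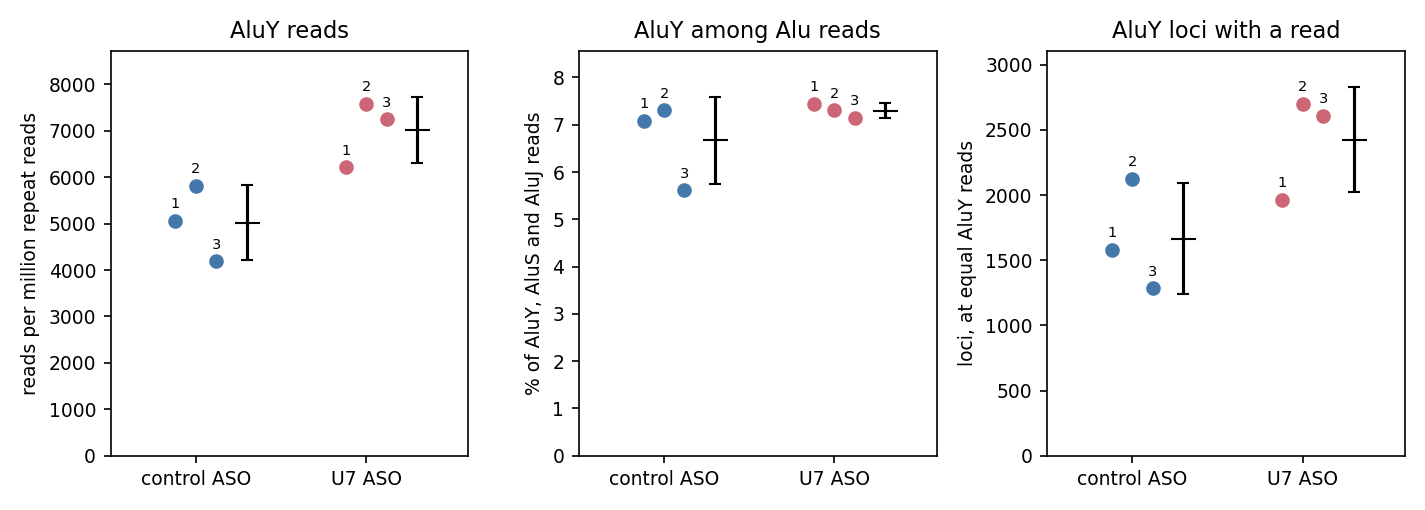
Values of single libraries (points, numbered by replicate) with the group mean and SD (bars), n = 3 per group. Left, AluY RPM, where the groups do not overlap. Middle, AluY reads as a percentage of AluY, AluS and AluJ reads, where control library 3 lies at 5.62% and the other 5 libraries between 7.09% and 7.45%. Right, the expected number of AluY loci with a read when every library is reduced to 8302 AluY reads, where U7 ASO library 1 lies below control library 2.

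The higher AluY sum lay in copies read in few libraries, while the copies read in all libraries had overlapping sums. Of the 9475 loci, 7011 (74.0%) had reads in exactly 1 library and 114 had reads in all 6. The 114 widely detected loci held 1396, 1412 and 1082 RPM in the controls and 1374, 1227 and 1119 under the U7 ASO, and the groups overlapped. Their means were 1297 ± 186 and 1240.2 ± 128 RPM (SD, n = 3 each), a ratio of 0.956. Loci with reads in exactly 1 library held 1565, 1936 and 1396 RPM in the controls and 2090.1, 3174 and 3131 under the U7 ASO, a 1.71-fold ratio of the means without overlap of the groups. The ratio was 1.55 for loci with reads in 2 libraries, 1.43 for 3, 1.35 for 4 and 1.21 for 5. The U7 ASO libraries also held more repeat reads, and a deeper library reaches more copies. The part of depth in this order was not tested. The classes were made from the same reads, so the order is a description.

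**Figure D2:**
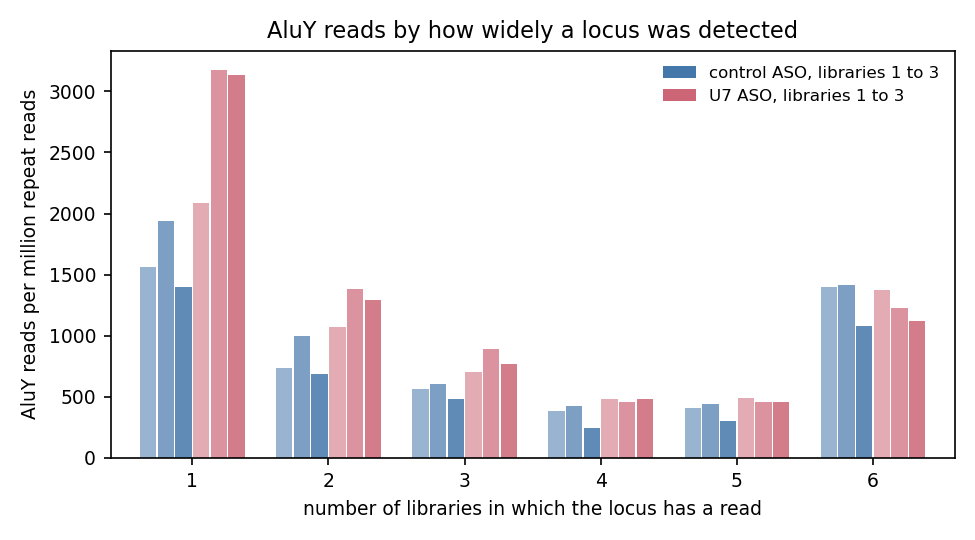
AluY RPM (vertical axis) for loci with a read in 1 to 6 libraries (horizontal axis). Each bar is 1 library, in the order control libraries 1 to 3 (blue) and U7 ASO libraries 1 to 3 (red). At loci read in 1 library the U7 ASO bars reach 2090.1 to 3174, and at loci read in all 6 the groups overlap.

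The mean number of AluY copies with a read was higher under the U7 ASO, but the groups overlapped. There were 1641, 2261 and 1287 such loci in the controls and 2146, 3207 and 3185 under the U7 ASO, so that U7 ASO library 1 lay below control library 2. At an equal number of 8302 AluY reads, the count of the smallest library, the expected numbers were 1582, 2125 and 1287 in the controls and 1965, 2703 and 2611 under the U7 ASO. The groups overlapped here too. The most-read copies took a larger share in the control libraries. The 10 loci with the most AluY reads in each library took 11.6%, 9.63% and 10.1% of its AluY reads in the controls and 9.16%, 6.15% and 5.77% under the U7 ASO. A typical detected copy held few reads, with medians of 3 to 4 reads per library.

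No AluY subfamily passed the test across all repeat names. Counts were summed over all loci of each name and tested with edgeR's quasi-likelihood test, two-sided, and p-values were adjusted by Benjamini-Hochberg over the 2236 names tested. A name was called at an adjusted p under 0.05. Of the 25 AluY names 20 had enough reads, and 0 of 20 were called, beside 2.55% of all names (1.52% raised and 1.03% lowered). DESeq2 called 1 AluY name and limma-voom 0. An unadjusted p under 0.05 was reached by 4 of 20 names (20%), beside 14.6% of all names. In 5 of the 20 (25%) all U7 ASO values exceeded all control values, beside 9.93% of all names, and 0 of the 20 had the reverse order, beside 10.2%. The U7 ASO values were likewise all higher in 6 of 17 AluS names and 2 of 4 AluJ names, with 0 in the reverse order. This order was therefore not particular to AluY among Alu names. The log2 fold change was above 0 for 14 names and below 0 for 6. Its median over the 20 names was 0.39, and over all tested names it was −0.01. AluY names share libraries and may share misplaced reads, so they are not independent.

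The name AluY carried between 80.0% and 83.1% of AluY reads. Its reads numbered 8199, 9092 and 6774 in the controls and 10692, 14501 and 16994 under the U7 ASO. After TMM scaling these were 4389.8, 4879 and 3267 CPM (the counts-per-million scale) in the controls and 5027, 5961 and 6046 under the U7 ASO. The groups did not overlap, and U7 ASO library 1 lay close above control library 2. The log2 fold change was 0.44 (SE 0.16, 95% interval 0.11 to 0.78, edgeR adjusted p = 0.189), so the name did not pass. Without control library 3 the log2 fold change was 0.30 (edgeR adjusted p = 0.347), and without control library 2 it was 0.58 (edgeR adjusted p = 0.211). Without U7 ASO library 1 it was 0.53 and passed (edgeR adjusted p = 0.0302), and over all alternatives the adjusted p ran up to 0.572. No single copy carried the difference, as the copy with the largest rise, AluY_dup2703_3079975, made up 1.54% of it.

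**Figure D3:**
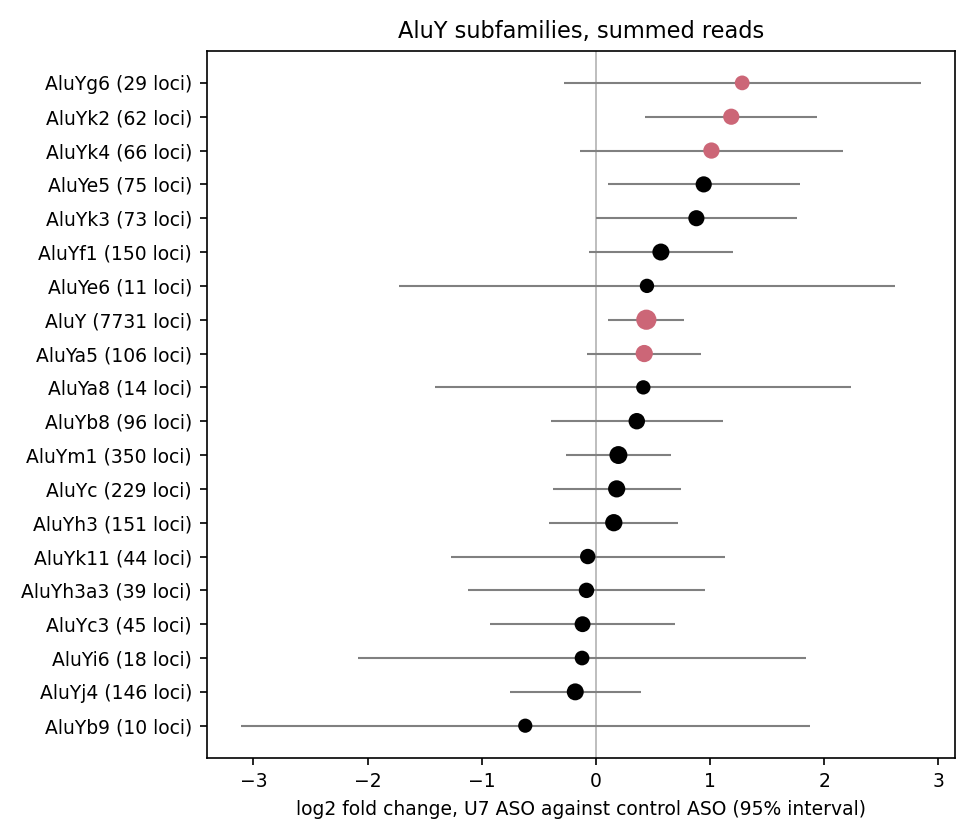
Log2 fold change of summed reads, U7 ASO against control ASO (points), with its 95% interval (lines), for the 20 AluY names tested. Point size grows with the reads of the name, and the 5 red names have all U7 ASO libraries above all controls. The intervals of 16 names include 0.

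AluYk2 had the smallest p of the subfamilies, and 1 copy made up most of its difference. Its 62 loci held 35, 56 and 36 reads in the controls and 111, 126 and 131 under the U7 ASO. The U7 ASO libraries all lay above the controls, at 50.2 ± 3.11 against 22.1 ± 6.96 CPM (SD, n = 3 each). The log2 fold change was 1.19 (SE 0.36, 95% interval 0.43 to 1.94, edgeR adjusted p = 0.102). The copy AluYk2_dup14_1918794, described further on, carried 57.4% of the difference. When every repeat name was summed without its most-read copy, which for AluYk2 is this one, the log2 fold change was 0.50 (edgeR adjusted p = 0.647). When this was done for AluY names alone it was 0.63 (edgeR adjusted p = 0.498). The name AluY stood at 0.31 (edgeR adjusted p = 0.488) and 0.44 (edgeR adjusted p = 0.187) in these fits. AluYk2 passed in DESeq2 (adjusted p = 0.0478).

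AluYg6 and AluYk4 also had groups that did not overlap, on few reads. AluYg6 held 4, 9 and 16 reads in the controls and 26, 34 and 28 under the U7 ASO (log2 fold change 1.28, 95% interval −0.28 to 2.85, edgeR adjusted p = 0.454). AluYk4 held 78, 67 and 5 reads in the controls and 134, 107 and 152 under the U7 ASO (log2 fold change 1.01, 95% interval −0.14 to 2.17, edgeR adjusted p = 0.428). Control library 3 lay far below the others for AluYk4, and without it the log2 fold change was 0.47 (edgeR adjusted p = 0.558). Without control library 1 that of AluYk4 was 1.51 (edgeR adjusted p = 0.318). AluYg6 stood at 1.78 without control library 3 (edgeR adjusted p = 0.308). AluYe5 and AluYk3 stood at log2 fold changes of 0.94 (edgeR adjusted p = 0.274) and 0.88 (edgeR adjusted p = 0.343), with U7 ASO library 1 inside the control range in both. AluYf1 stood at 0.57 (edgeR adjusted p = 0.413). Without control library 3, AluYk3 stood at 0.55 and AluYf1 at 0.29, and without control library 1 they stood at 1.24 and 0.85.

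The subfamilies with recent insertions did not pass either. AluYa5 held 214, 190 and 183 reads in the controls and 339, 301 and 354 under the U7 ASO. The groups did not overlap, and the log2 fold change was 0.42 (SE 0.24, 95% interval −0.08 to 0.93, edgeR adjusted p = 0.437). A single copy, AluYa5_dup96_5024171, held 51.9% of all AluYa5 reads. Without it the log2 fold change of AluYa5 was 0.79 (edgeR adjusted p = 0.222) in the fit without the most-read copy of every repeat name, and 0.90 (edgeR adjusted p = 0.129) in that for AluY names alone. AluYb8 held 92, 110 and 44 reads in the controls and 134, 123 and 147 under the U7 ASO, at 43.2 ± 19.6 and 55.3 ± 6.74 CPM (SD, n = 3 each), and the scaled groups overlapped. Its log2 fold change was 0.36 (95% interval −0.40 to 1.11, edgeR adjusted p = 0.734). It was 0.03 without control library 3 (edgeR adjusted p = 0.981) and 0.66 without control library 2 (edgeR adjusted p = 0.642). The copy AluYb8_dup37_88051, the most read of AluYb8, carried 70.1% of the difference. Without it the log2 fold change of AluYb8 was 0.003 (edgeR adjusted p = 0.999) in the fit without the most-read copy of every repeat name. In that for AluY names alone it was 0.13 (edgeR adjusted p = 0.919). AluYa8 and AluYb9, the further branches of these lineages, were poorly measured. AluYb9 held 16, 21 and 0 reads in the controls and 0, 24 and 8 under the U7 ASO (log2 fold change −0.62, 95% interval −3.11 to 1.88), and AluYa8 stood at 0.42 (95% interval −1.41 to 2.24).

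The other tested names lay nearer to 0 or were poorly measured. AluYm1, the second most read, held 453, 579 and 409 reads in the controls and 502, 781 and 852 under the U7 ASO (log2 fold change 0.20, 95% interval −0.26 to 0.66, edgeR adjusted p = 0.754). AluYh3, the third most read, held 267, 244 and 175 reads in the controls and 212, 428 and 347 under the U7 ASO (log2 fold change 0.16, edgeR adjusted p = 0.853). AluYc stood at 0.18, AluYc3 at −0.12, AluYh3a3 at −0.08 and AluYe6 at 0.45. AluYj4 was the only one of the names with over 100 loci that lay below 0, at 214, 173 and 157 reads in the controls and 140, 240 and 239 under the U7 ASO (log2 fold change −0.18, 95% interval −0.75 to 0.39, edgeR adjusted p = 0.827). AluYi6 held 20, 32 and 0 reads in the controls and 29, 18 and 13 under the U7 ASO (log2 fold change −0.12), and AluYk11 stood at −0.07. AluYd8, AluYh7, AluYh9, AluYi6_4d and AluYk12 held too few reads to be tested.

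Names of related repeats were not called either. Among the AluS names 0 of 17 were called, with a median log2 fold change of 0.31, and among the AluJ names 0 of 4, with a median of 0.27. Over all tested names 2.55% were called, and at that share lists this short may hold no called name. The most-read of them, AluSz and AluJb, stood at 0.22 (95% interval −0.06 to 0.51) and 0.32 (95% interval 0.05 to 0.59). The Alu monomers and 7SL names, the relatives of the ancestral RNA, had a median of −0.00 over 6 names, and 7SLRNA itself stood at 0.07 (95% interval −0.26 to 0.39, edgeR adjusted p = 0.895). The young L1 names L1HS and L1PA2 to L1PA7 had a median of 0.33 over 7 names. The SVA names, composite elements with an Alu-like part, had a median of 0.26 over 6 names. In these 3 lists 0 names were called, beside the same 2.55% of all names. The differences between these lists and AluY were not tested beyond the share of Alu reads above.

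At the level of single copies few loci could be tested. The same test was run on each locus, with p-values adjusted over the 14380 loci that passed the count filter. Of the 9475 AluY loci 115 passed it (1.21%), of which 93 carry the name AluY, 7 AluYm1 and 4 AluYa5. These 115 held between 17.4% and 27.7% of the AluY reads of a library. Of them 5 were called, beside 4.96% of all tested loci. The called loci were 4 raised (3.48%), beside 4.49%, and 1 lowered (0.870%), beside 0.473%, and 110 were not called. These shares were near the background. The groups did not overlap at 15 loci with the U7 ASO higher (13.04%), beside 12.2% of all tested loci, and at 8 with it lower (6.96%), beside 8.36%. An unadjusted p under 0.05 was reached by 10 of the 115 (8.70%), beside 12.3%. Without U7 ASO library 1, 0 AluY loci were called. Without control library 2 or U7 ASO library 2 there were 2 raised and 0 lowered loci, and without U7 ASO library 3 there were 1 and 2. None of the 4 raised loci reached 10 reads in more than 1 control library, so each passed the filter through the U7 ASO libraries, where it is high. Their number and p-values are therefore given as a description.

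The raised copy with the smallest p lay beside an LTR12C element. LTR12C is a long terminal repeat of the HERV9 endogenous retroviruses, and such repeats can serve as promoters. AluYk2_dup14_1918794 held 0 reads in each control library, against 42, 37 and 38 under the U7 ASO. This was at least 35.8-fold higher, computed against 3 reads over the control group (edgeR adjusted p = 0.00141). The copy entered the test through its U7 ASO reads alone. The final number of an identifier was taken as its running number in the annotation. Closeness in this number was read as closeness in the genome, which could not be checked. Within 20 running numbers of this copy 16 other loci were listed, and all 5 of them that could be tested were raised. Each of these 5 passed the count filter through the U7 ASO libraries, where it is high, so their calls are a description. Among these was LTR12C_dup126_1918798, at 28, 0 and 22 reads in the controls and 1210, 901 and 1025 under the U7 ASO. The 16 neighbours together held 28, 12 and 26 reads in the controls and 2236, 1623 and 2154 under the U7 ASO. The call of the AluYk2 copy was lost without U7 ASO library 1 (edgeR adjusted p = 0.0581) and was held in the other 14 alternatives run for it.

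AluY_dup2703_3079975 likewise lay beside raised elements. It held 6, 10 and 0 reads in the controls and 63, 58 and 68 under the U7 ASO. The log2 fold change was 3.39 (SE 0.78, edgeR adjusted p = 0.0185), and the groups did not overlap. Its 3 tested neighbours were all raised. One was SVA_D_dup53_3079973, at 30, 40 and 46 reads in the controls and 606, 354 and 448 under the U7 ASO. Another was LTR12C_dup51_3079978, at 10, 0 and 18 reads in the controls and 168, 124 and 97 under the U7 ASO. This LTR12C locus and the remaining neighbour, LTR19B_dup12_3079967, passed the count filter through the U7 ASO libraries, where they are high. The call of the AluY copy was lost in 6 of 15 alternatives, among them limma-voom and the omission of control library 1 or of any of the U7 ASO libraries, with adjusted p-values up to 0.201.

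The other raised copies had no LTR12 or HERV9 locus in their windows. AluY_dup5051_249596 held 0, 0 and 2 reads in the controls and 59, 17 and 33 under the U7 ASO, a ratio of 49.97 (exact 95% counting interval 13.5 to 418, edgeR adjusted p = 0.00920). Its 12 listed neighbours together held 15, 13 and 12 reads in the controls and 56, 87 and 97 under the U7 ASO, so reads around it were also higher in every U7 ASO library. The only neighbour tested was not called. The call was lost with limma-voom and without control library 2, U7 ASO library 1 or U7 ASO library 3 (adjusted p up to 0.287). AluY_dup2916_2273857 held 0, 1 and 0 reads in the controls and 13, 24 and 29 under the U7 ASO, a ratio of 60.5 (exact 95% counting interval 10.5 to 2426, edgeR adjusted p = 0.0438). Its 7 neighbours held 11, 12 and 15 reads in the controls and 18, 8 and 8 under the U7 ASO, and those groups overlapped. This was the weakest call, lost in 11 of 14 alternatives, including the omission of any 1 library.

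One copy was lowered. AluY_dup4056_5034071 held 98, 128 and 97 reads in the controls and 22, 30 and 40 under the U7 ASO. At 70.5 ± 14.05 and 18.1 ± 4.01 CPM (SD, n = 3 each), all U7 ASO values were below all control values. The log2 fold change was −1.95 (SE 0.40, edgeR adjusted p = 0.00714). Its 19 neighbours held 92, 67 and 85 reads in the controls and 99, 44 and 49 under the U7 ASO, and the groups overlapped. The call was lost without a count filter and without control library 2, U7 ASO library 1 or U7 ASO library 2 (adjusted p up to 0.201).

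**Figure D4:**
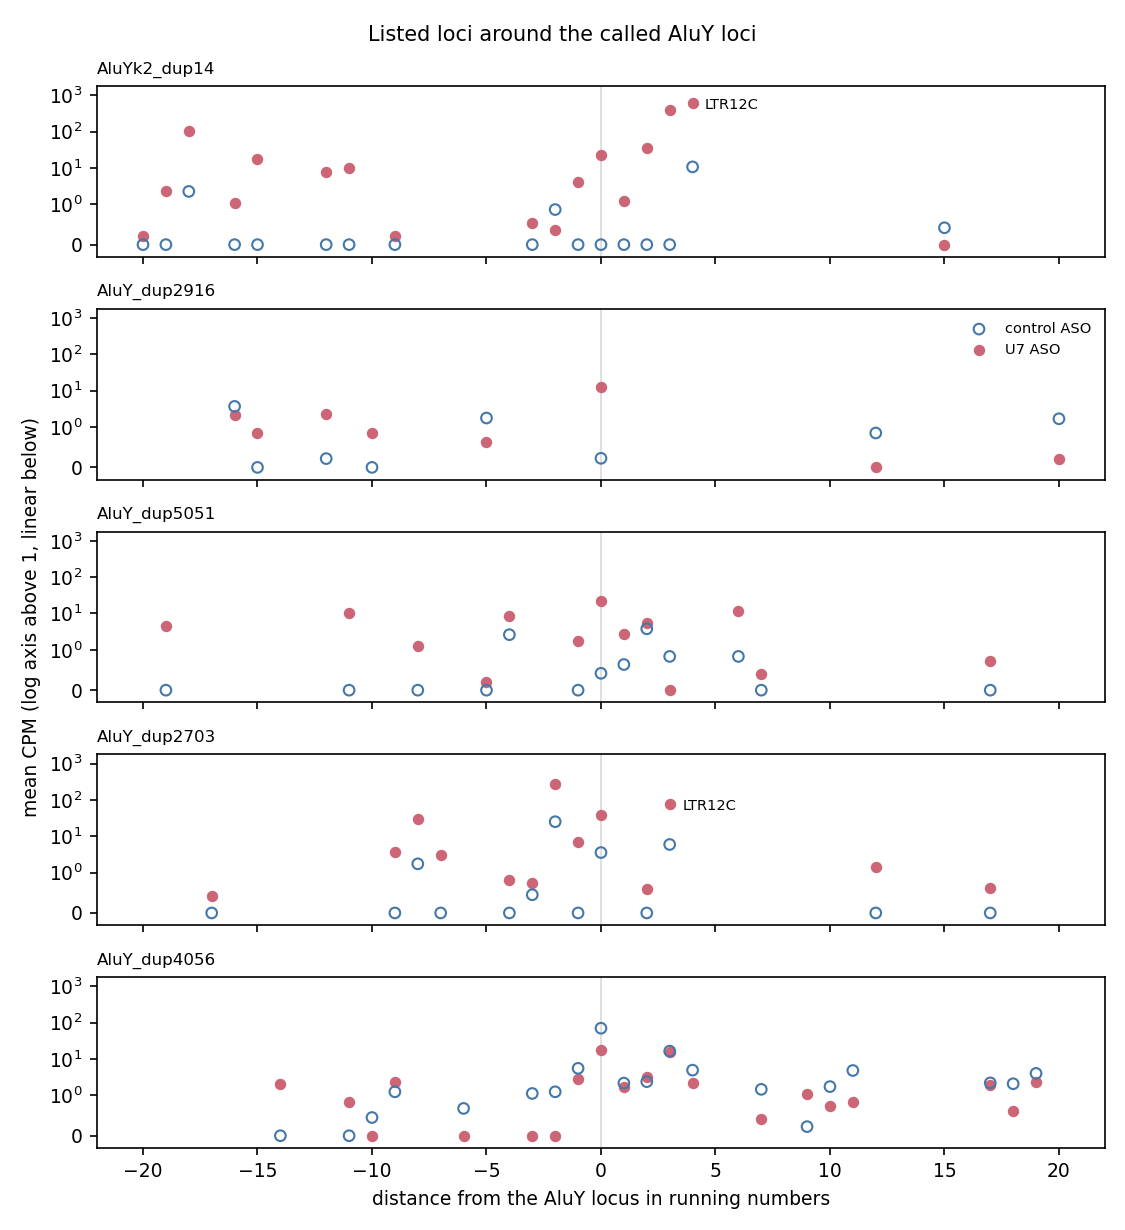
Mean CPM over 3 libraries (vertical axis, logarithmic above 1 and linear below) of every listed locus within 20 running numbers (horizontal axis) of the 5 called AluY copies, which stand at 0. Open circles are control ASO and filled circles U7 ASO. Around AluYk2_dup14 and AluY_dup2703 most neighbours are higher under the U7 ASO, as the copy is, and an LTR12C locus is among them. Around AluY_dup5051 most neighbours are also higher under the U7 ASO, most of them on few reads, and no LTR12 locus is among them. The neighbours of AluY_dup2916 lie in both directions. Around AluY_dup4056 most neighbours are lower under the U7 ASO, as the copy is, though most of them hold few reads.

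The AluY copies near raised LTR12 and HERV9 loci were few, and their reads were higher with the U7 ASO. Of all listed AluY loci, 54 lay within 20 running numbers of such a raised locus (0.570%), and these held 20, 27 and 14 reads in the controls and 200, 279 and 257 under the U7 ASO. Of these 54, 8 had a read in any control library and 49 in any U7 ASO library. As every listed locus has a read in some library, a locus without control reads must have U7 ASO reads. Without the called copies the other 52 held 14, 17 and 14 reads in the controls and 95, 184 and 151 under the U7 ASO. The raised neighbours came from the same comparison, so this is a description and not a test. Another 191 AluY loci lay near a listed LTR12 or HERV9 locus but near no raised one, and held 114, 131 and 148 reads in the controls and 323, 375 and 609 under the U7 ASO. The mean CPM of the 54 loci was 9.39 times as high with the U7 ASO, that of the 191 loci 2.58 times, and that of the 9230 loci near none 1.30 times.

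These neighbouring copies made up a small part of the AluY sum. The 54 loci accounted for 5.16% of the net difference in AluY CPM and the 191 for 6.15%, while the 9230 loci near no listed LTR12 or HERV9 locus accounted for 88.7%. The last held 5416, 5931 and 3926 CPM in the controls and 5857, 7059 and 6968 under the U7 ASO, and control library 2 lay above U7 ASO library 1. Of the 4 raised AluY copies 2 lay near a raised LTR12 or HERV9 locus, and of all 115 tested AluY loci also 2 (1.74%). Among the 313 raised loci outside AluY, LTR12 and HERV9 this held for 120 (38.3%), and among all 13802 such tested loci for 171 (1.24%). The raised loci and their raised neighbours came from the same comparison, so these shares are a description and not a test.

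The AluY copies with the highest mean CPM were not called, and their groups overlapped. AluY_dup2645_4983176, the most-read copy, held 174, 140 and 85 reads in the controls and 183, 199 and 201 under the U7 ASO (log2 fold change 0.42, edgeR adjusted p = 0.791). AluY_dup8365_421842 held 129, 146 and 124 reads in the controls and 108, 201 and 143 under the U7 ASO, and AluYa5_dup96_5024171 held 148, 110 and 103 in the controls and 177, 124 and 158 under the U7 ASO. In both the groups overlapped, and the log2 fold changes were 0.06 and 0.22. AluYh3_dup18_5250196, which held 38.3% of AluYh3 reads, stood at 138, 125 and 67 reads in the controls and 108, 107 and 95 under the U7 ASO. AluY_dup2502_580863 and AluY_dup1376_4650993 stood at log2 fold changes of −0.08 and −0.59. The adjusted p-values of the 6 copies ran from 0.791 to 0.982 (edgeR). These copies were detected in all 6 libraries, as part of the widely read set whose sum was not higher with the U7 ASO.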

How the data were processed

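The deposited tables hold raw read counts per repeat locus, 1 table per library, and the counts were used as deposited. STAR 2.5.3a, FastQC 0.11.5 and the Subread program featureCounts 1.5.0-p1 are named with the build GRCh38 per the submitters' processing notes. Not given in the sources used here are the repeat annotation, the strand setting and the handling of read pairs and multiply placed reads. Even numbers made up 75.6% to 82.6% of AluY counts above 0, so a count may hold 2 mates of 1 fragment and counting intervals may be too narrow. Whether the libraries came from separate cultures is stated no further than the word biological replicates. Without a stated strand setting, a copy and an opposite transcript across it cannot be told apart. Identifiers carry no coordinates, so no gene or position is given, and no sequence of single copies is used here.

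Groups and replicate numbers came from the sample titles. Names were made by removing the copy and running numbers. Loci, and sums per name, were tested with edgeR 4.0.16 (glmQLFit, glmQLFTest) in R 4.3.3, with TMM scaling and filterByExpr (minimum count 10, minimum total 15). CPM follow TMM scaling. Standard errors were derived from the fold change and F statistic. Alternatives used limma 3.58.1 (voom), DESeq2 1.42.0, other scalings and filters, a replicate block and the omission of single libraries. The expected number of loci at equal reads is a hypergeometric expectation. Exact intervals are Clopper-Pearson 95% intervals. The code was tested on simulated counts. At loci the test recovered 1 of 100 changes of 2-fold and 14 of 100 of 4-fold. At names it recovered 35 of 100 and 70 of 100. A name or locus that was not called may therefore still differ.

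The rule for named loci took the called AluY loci without overlap of the groups (up to 12 in each direction) and the 6 with the highest mean CPM. All tested AluY names were named. Members, lists and tests were chosen with earlier results of these data known.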

Additional observations from a re-analysis of the deposited data

How the results depend on the processing

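The count of raised AluY names, 0 in the edgeR fit, was 1 with DESeq2 and 1 with the replicate block (AluYk2 in both), and ranged from 0 to 1 when single libraries were left out. No AluY name was lowered in any alternative run. Leaving out single libraries gave 0 to 3 raised and 0 to 2 lowered AluY loci. DESeq2 gave 6 raised and 1 lowered loci, limma-voom 2 and 2, the fit without a count filter 2 and 0, and the replicate block 4 and 2. Whether the replicate numbers pair the samples was not settled. The correlations of same-numbered libraries over names were 0.114, −0.030 and 0.119, and those of differently numbered libraries ran from −0.153 to 0.056. Over all tested names the replicate block called 59 raised and 74 lowered, against 34 and 23 in the main fit. Among loci read in all 6 libraries the difference in the AluY share of Alu reads reversed to −0.158 percentage points and that in AluY RPM was −56.8. With the 10 most-read loci of the series left out of the denominator the latter was 2810.2. Leaving out single libraries gave differences of 0.102 to 0.949 percentage points, of 1579.65 to 2398 RPM and of 623 to 992 loci at equal reads. Upper-quartile scaling shifted the median log2 fold change of all tested loci by −0.15. Fitting without a count filter shifted it by 1.46. The denominator, the omission of the most-read copy of AluY names alone, the omission of libraries for loci at equal reads, and windows of 5 and 50 running numbers (2 raised copies near LTR12 or HERV9 in each) were chosen after seeing the data. Depth limits what single copies can show, as 3101 of 9475 AluY loci held 1 or 2 reads in all libraries together.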

Other observations

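AluYm1_dup86_972706 was chosen after its values were seen. It held 77, 107 and 120 reads in the controls and 21, 13 and 78 under the U7 ASO, and 11.6% of all AluYm1 reads. Its scaled groups did not overlap, at 66.0 ± 13.7 and 21.3 ± 18.7 CPM (SD, n = 3 each), and it was not called (log2 fold change −1.61, edgeR adjusted p = 0.144). It passed with limma-voom (adjusted p = 0.0335), with the replicate block (adjusted p = 0.0274) and without U7 ASO library 3 (adjusted p = 0.0260). Without this copy AluYm1 stood at a log2 fold change of 0.32 (edgeR adjusted p = 0.617) in the fit without the most-read copy of every repeat name, and 0.46 (edgeR adjusted p = 0.392) in that for AluY names alone.

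Reads at AluY loci were divided unevenly between subfamilies. The most-read copy held 51.9% of the reads of AluYa5 and 38.3% of those of AluYh3, but 2.61% of those of AluYc and 1.48% of those of the name AluY. AluYb8_dup37_88051 held 16.8% of AluYb8 reads, 8.13% in the controls and 22.03% under the U7 ASO.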
